A study of Mus musculus with 60 samples.

Results

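The clock output factors examined here were 9 genes for transcription factors that the circadian clock drives or that feed back on it: Dbp, Tef, Hlf, Nfil3, Nr1d1, Nr1d2, Bhlhe40, Bhlhe41 and Rora. They were chosen by symbol: every probe set to which the annotation of the array assigns one of these symbols alone was taken. This gave 23 of the 45101 probe sets and 9 of the 18193 genes on the array. Rora has 9 probe sets, Tef has 3, Dbp, Hlf, Nr1d2 and Bhlhe41 have 2 each, and Nfil3, Nr1d1 and Bhlhe40 have 1 each. Each gene was represented by its brightest probe set, and all 9 lay above the filter on dim signals in heart, gastrocnemius muscle and neocortex.

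In mammalian cells the clock is a loop in which CLOCK and BMAL1 (encoded by Arntl) switch on genes through E-boxes, and the period and cryptochrome proteins shut that activity off. The factors described here carry the rhythm outward and back. DBP, TEF and HLF, the proline and acidic amino acid-rich (PAR) bZIP proteins, activate genes through D-boxes, and NFIL3 (E4BP4) represses through the same sites. REV-ERBα (Nr1d1) and REV-ERBβ (Nr1d2) repress, and RORα (Rora) activates, through a shared element in genes such as Arntl, while DEC1 (Bhlhe40) and DEC2 (Bhlhe41) repress at E-boxes. Transcripts of Dbp and Nr1d1 swing widely over the day in peripheral tissues, and the hour of feeding is known to set the phase of clocks outside the brain.

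The samples came from male B6C3F1 hybrid mice, housed singly, and each array held RNA of 1 tissue from 1 mouse. Old CR mice were fed a calorie restricted diet from 14 to 30 months of age. Old resveratrol mice ate the control diet with resveratrol added to reach 4.9 mg per kg body weight over the same months, and old control mice ate the control AIN93M diet to 30 months. Young control mice ate the control diet and were 5 months old. The labels give the restriction as 40%, while the weekly intakes in the methods amount to a smaller restriction relative to the controls, which were themselves fed below free intake. There were 5 arrays of each group in each tissue and 60 in all. The time of day of tissue collection and the hour of the last meal were not given in the sources used here, so a changed level and a shifted rhythm of these genes cannot be told apart. Whole tissue was measured, so fewer cells of a type and less RNA per cell cannot be told apart either. Groups are compared as old CR or old resveratrol with old control (the effect of each diet), old control with young control (age), and old CR with old resveratrol (the difference between the diets).

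Signals are linear array intensities scaled by the authors to a 2% trimmed mean of 500 on every array, with array medians from 96.1 to 151. In heart the medians were 137 to 150 on old CR and 106 to 120 on old control arrays. In gastrocnemius they were 134 to 151 on old CR, 119 to 137 on old resveratrol and 96.1 to 110 on old control arrays. The part of these separate medians in the changes under the diets was not tested. Marker genes fitted the labelled tissues: the 6 heart muscle markers lay between 9746.5 and 118476 on the heart arrays, the 6 skeletal muscle markers between 34312 and 86128 on the gastrocnemius arrays, and the 6 neuron markers between 1004 and 26137 on the neocortex arrays. In gastrocnemius the 24 poly-A control probe sets, which read bacterial transcripts added before labelling, averaged 9.77 in old CR, 9.85 in old resveratrol, 6.66 in old control and 7.30 in young control arrays on the log2 scale. The 2 diet groups overlapped there, and neither overlapped the controls. The 3′ minus 5′ difference of the Gapdh control probe sets also set the old controls apart from both diets in gastrocnemius. On the log2 scale it was -0.218 to 3.23 in old control and -0.277 to 0.194 in young control arrays. It was -0.297 to -0.235 in old CR and -0.301 to -0.232 in old resveratrol arrays. The part of these 2 differences in the gastrocnemius changes under either diet, all described further on, was not tested. In heart the 3′ minus 5′ difference of the Actb control probe sets, which widens as RNA or its copying falls short, was 0.79 ± 0.11 in old CR, 0.82 ± 0.12 in old resveratrol, 1.39 ± 0.16 in old control and 0.72 ± 0.10 in young control arrays (log2, SD, n = 5 each), and old controls did not overlap any other group. The Gapdh difference also set old control hearts apart, at -0.0836 to 0.253 against -0.283 to -0.142 in young control hearts. It was -0.277 to -0.250 in old CR and -0.266 to -0.173 in old resveratrol hearts. In neocortex the Actb difference was 0.66 to 0.77 in old CR and 0.76 to 1.01 in old resveratrol arrays, against 0.45 to 0.60 in old control arrays. The poly-A controls of neocortex averaged 9.32 to 9.91 (log2) on old resveratrol arrays, above the 8.36 to 9.04 of old control arrays. Old CR arrays had 8.32 to 9.44 and overlapped both. By their correlation with the rest of their group or these control differences, young control 1 and old control 4 of heart and old CR 2, old control 1 and young control 4 of gastrocnemius stood apart. Without the 3 gastrocnemius arrays the age comparison there called 717 genes in place of 55.

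Promoter windows of RefSeq (build GRCm38.p6, 300 bases around each start site) were found for 8 of the 9 genes, Bhlhe40 being the exception. They were searched on both strands for the E-box CACGTG, the D-boxes TTATGTAA and TTACGTAA, and the ROR and REV-ERB element TAGGTCA, none of which overlapped another in the windows described. The E-box was present in 7.15% of all 32851 windows, the D-boxes in 0.938% (TTATGTAA) and 0.119% (TTACGTAA), and the ROR and REV-ERB element in 2.61%. Among the 9 genes the E-box was present in both windows of Tef and in that of Bhlhe41, and the ROR and REV-ERB element in that of Nfil3. The windows of Dbp, Hlf, Nr1d1, Nr1d2 and Rora held none of these letters, which says nothing of sites elsewhere in those genes. The 4 stretches that hold a match are shown in the direction of transcription, because the E-box and this element are the textbook targets of the DEC, REV-ERB and ROR proteins described here, with the motif in capitals.
Tef, chr15:81802506-81802591, plus strand: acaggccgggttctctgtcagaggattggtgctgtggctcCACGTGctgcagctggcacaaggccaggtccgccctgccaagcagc
Tef, chr15:81811236-81811321, plus strand: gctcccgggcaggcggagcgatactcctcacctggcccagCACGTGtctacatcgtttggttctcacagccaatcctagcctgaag
Bhlhe41, chr6:145865528-145865613, minus strand: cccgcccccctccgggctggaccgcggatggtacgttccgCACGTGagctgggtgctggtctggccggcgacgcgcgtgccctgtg
Nfil3, chr13:52981005-52981091, minus strand: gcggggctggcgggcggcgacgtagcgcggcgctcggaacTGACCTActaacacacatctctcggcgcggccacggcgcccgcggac
The motif began 127 and 138 bases before the start site in the Tef windows, 153 before it in Bhlhe41 and 12 before it in Nfil3, where it lay on the opposite strand and so reads as its reverse complement. Of the core clock genes, Per3 held the D-box TTATGTAA at 2 places, and its first copy is shown because D-box factors act on it and its signal is set beside theirs further on.
Per3, chr4:151044823-151044910, minus strand: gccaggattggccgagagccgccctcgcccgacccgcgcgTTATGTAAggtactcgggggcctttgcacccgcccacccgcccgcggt
A match is a description of letters and does not show that a factor binds.

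Set across tissues, the 9 genes had different homes. In young control mice Hlf, an activator first known from leukaemia, had signals of 548 to 744 in heart, 459 to 766 in gastrocnemius and 2381 to 3026 in neocortex, so that neocortex stood above both muscles on every array while heart and gastrocnemius overlapped. Rora ranged over 269.5 to 417 in heart, 1770.3 to 3183 in gastrocnemius and 515 to 877 in neocortex, with no overlap between any 2 tissues. Bhlhe40 (1129.7 to 1931, 3305 to 4915 and 1619 to 2159 in heart, gastrocnemius and neocortex) and Nr1d2 (5709 to 8630.3, 11457 to 17635 and 5960.4 to 6579.6) were highest in gastrocnemius, and their heart and neocortex values overlapped. Nr1d1 was lowest in neocortex (339 to 431, against 757 to 1331 in heart and 619.7 to 1719.8 in gastrocnemius), and the muscles overlapped. Nfil3 was highest in gastrocnemius (330.0 to 961), above heart (112 to 295) and neocortex (116 to 234), which overlapped. Dbp ranged over 4700.1 to 6149, 3160.2 to 5943 and 2582 to 4263 in heart, gastrocnemius and neocortex. Tef ranged over 1821 to 2920.0, 3037 to 5570.1 and 3563 to 4695, and Bhlhe41 over 117 to 312, 155 to 459 and 102 to 191. For Dbp heart and neocortex did not overlap but gastrocnemius overlapped each of them; for Tef heart lay below the other tissues; for Bhlhe41 all 3 tissues overlapped. These orders are descriptions of 1 probe set across tissues, each array being scaled to the same trimmed mean.

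**Figure D1:**
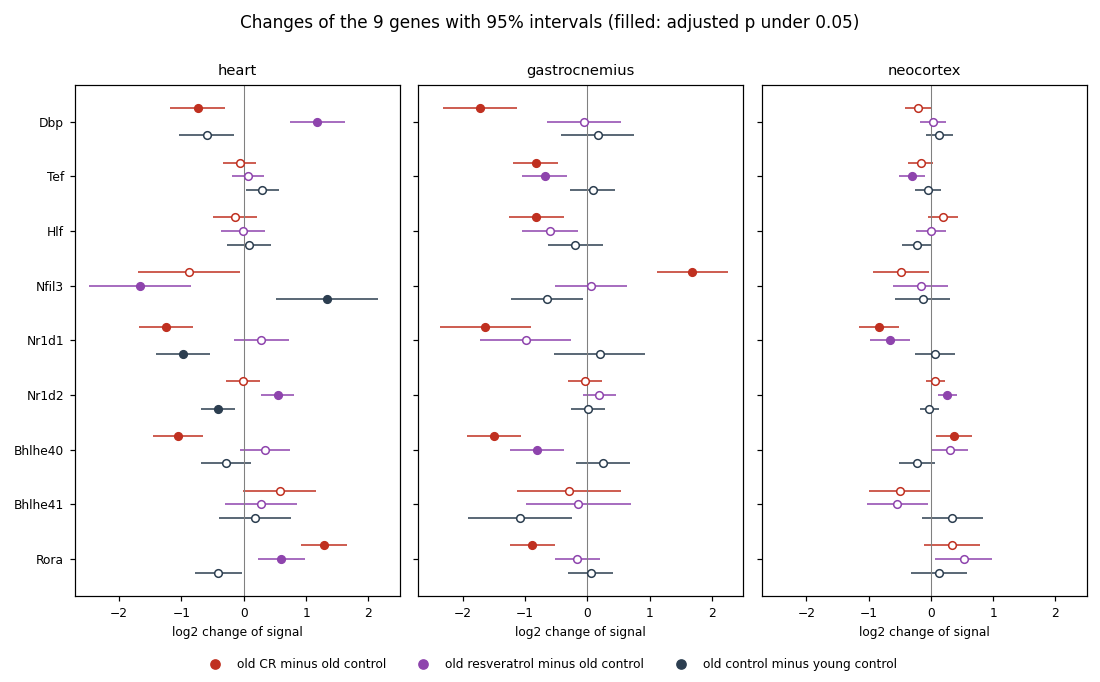
Log2 change of signal (horizontal axis) of each of the 9 genes (vertical axis) in heart, gastrocnemius and neocortex, for old CR minus old control, old resveratrol minus old control and old control minus young control. Points are limma estimates, bars 95% intervals, and filled points passed an adjusted p of 0.05; under CR Nr1d1 lies left of 0 with a filled point in all 3 tissues, while Rora lies right of 0 in heart and left of it in gastrocnemius.

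Old CR hearts had lower Nr1d1, Bhlhe40 and Dbp and higher Rora than old control hearts, and old resveratrol hearts had higher Dbp, Rora and Nr1d2 and lower Nfil3. In limma tests across 13278 genes, CR moved 4 of the 9 genes in heart (1 rose, 3 fell) where 22.0% of all genes tested passed, and resveratrol moved 4 (3 rose, 1 fell) where 17.5% passed. Age moved 3 (Nfil3 rose, Nr1d1 and Nr1d2 fell) where 10.8% of all genes passed. The direct comparison of old CR with old resveratrol hearts called 5 of the 9 genes (Rora higher, and Dbp, Nr1d1, Bhlhe40 and Nr1d2 lower in CR), where 4.0% of all genes passed. The median log2 change of the 9 genes in heart was -0.14 under CR, 0.28 under resveratrol, -0.28 with age and -0.13 between the diets, against 0.00046, 0.0092, 0.031 and -0.0092 over all genes tested. CR, resveratrol and age share the old control arrays, so these calls are not independent of each other.

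In gastrocnemius CR called 7 of the 9 genes, the most of any comparison: Nfil3 rose, and Dbp, Nr1d1, Bhlhe40, Rora, Tef and Hlf fell. Of all 12825 genes tested there, 31.2% passed under CR. Resveratrol called 2 (Bhlhe40 and Tef fell) where 18.7% of all genes passed, a share of the 9 close to that of all genes. Between the diets Nfil3 was higher and Dbp lower in old CR than in old resveratrol muscle, 2 of 9 where 0.561% passed. Age called none of the 9, where 0.429% of all genes passed. At an unadjusted p under 0.05 limma had 2 of the 9, where 1784 of all 12825 genes passed. The test named in the methods called none of the 9 with age. The median change of the 9 genes was -0.83 under CR and -0.16 under resveratrol, against 0.10 and 0.066 over all genes; it was 0.054 with age and -0.23 between the diets, against 0.030 and 0.030.

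In neocortex CR called 2 of the 9 genes (Bhlhe40 rose, Nr1d1 fell) where 30.6% of all 13051 genes passed, and resveratrol called 3 (Nr1d2 rose, Nr1d1 and Tef fell) where 26.2% passed. Both counts are near or under the share of all genes. Neither age (1.46% of all genes) nor the comparison of the diets (9.29%) called any of the 9. The median change was -0.17 under CR, 0.0018 under resveratrol, -0.028 with age and -0.17 between the diets, against -0.027, -0.0051, 0.022 and -0.020 over all genes tested. Nr1d1 and Bhlhe40 passed the test under CR in every tissue, Nr1d1 falling in all 3 and Bhlhe40 rising in neocortex. At an unadjusted p under 0.05 limma had 0 of the 9 with age in neocortex, where 1949 of all 13051 genes passed. Between the diets it had 2 of the 9, where 3229 of all genes passed. The test named in the methods called none of the 9 in either comparison.

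Dbp, the PAR bZIP activator with the widest daily swing of the 3, went opposite ways under the diets in heart. Its signal was 2758, 2169, 2607, 2229 and 1231 in old CR hearts and 7121, 9291, 7513, 8915 and 7515 in old resveratrol hearts, against 3105, 3434, 5659, 1887 and 4860.2 in old control hearts. Every resveratrol heart lay above every control heart, and the CR hearts lay in and below the lower part of the control range. Dbp fell by 0.74 ± 0.21 (log2, SE) under CR (adjusted p = 0.014) and rose by 1.18 ± 0.21 under resveratrol (adjusted p = 0.000334), and CR hearts were 3.79-fold lower than resveratrol hearts (adjusted p = 5.39e-06). The CR call was lost without old control 3 (0.055) or old CR 5 (0.0563). Young control hearts had 5269.6, 5304, 6149, 5359.6 and 4700.1, a narrower spread than the old controls. With age Dbp changed by -0.59 ± 0.21 (adjusted p = 0.0749), past the threshold without old control 3 (0.0212), old control 5 (0.0459) or old CR 5 (0.043). In old CR hearts the macrophage markers summed to 13882 to 17712, in old resveratrol hearts to 11911 to 17964 and in old control hearts to 8426 to 11496, with 4 of the 5 called higher under each diet. The 5 atrial markers summed to 147530.0 to 188845, 166404 to 209208 and 72637 to 158137 in the same order, with 3 called higher under CR and 5 under resveratrol. The 3 liver markers summed to 2278 to 4198, 428 to 4336 and 296 to 569, with 3 called higher under CR and 1 under resveratrol. The 3 erythroid markers on the array summed to 5535 to 22607, 3369 to 7982 and 1858 to 3153, with 1 called higher under each diet. Of 2 adipocyte markers tested, 1 was called higher under CR, with sums of 599 to 5533 in old CR against 77.6 to 1551 in old control hearts. Of 3 skeletal muscle markers tested 1 was called lower under CR (52955 to 63661 against 58599 to 80072), and of 4 astrocyte markers 1 was called higher and 1 lower (16880.0 to 20253 against 25048 to 28352). The part of these markers, and of the Actb and Gapdh differences of old control hearts, in the heart results was not tested.

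In gastrocnemius Dbp dropped under CR. The old CR muscles had 1840.2, 1072, 1421, 1512 and 1844 and the old resveratrol muscles 5234, 7707, 2301, 5204 and 5165, against 8515, 5352, 4289.8, 5795 and 2649.6 in the old control muscles. All 5 CR arrays lay below every other array of the tissue, while resveratrol and control arrays covered the same range. Dbp fell by 1.72 ± 0.29 under CR (adjusted p = 0.000164) and was 3.17-fold lower in CR than in resveratrol muscle (adjusted p = 0.00899). Under resveratrol the change was -0.05 ± 0.29 with a 95% interval of -0.65 to 0.54, and with age it was 0.16 ± 0.29 (young controls 3160.2 to 5943). In neocortex Dbp had 3577, 3000.3, 3334, 3315 and 3837 in old CR, 3664 to 4485 in old resveratrol and 3535 to 4475 in old control mice. These groups overlapped, and the changes of -0.21 ± 0.10 under CR (adjusted p = 0.138, 0.049976 without young control 5), 0.04 ± 0.10 under resveratrol and 0.13 ± 0.10 with age did not pass.

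Tef and Hlf, the other PAR bZIP activators, moved in gastrocnemius at their brightest probe sets. Tef had 2606, 1849, 2539, 3076 and 3539.7 in old CR and 3074, 3073, 2299, 2848 and 3562 in old resveratrol muscle, against 3619, 4456, 5449, 5293 and 5113 in old control muscle, and neither diet group overlapped the old controls. It fell by 0.83 ± 0.18 under CR (adjusted p = 0.00141) and by 0.69 ± 0.18 under resveratrol (adjusted p = 0.00881), with no call between the diets (-0.14 ± 0.18, 95% interval -0.51 to 0.22). Hlf had 316, 184, 195, 394 and 318 in old CR and 392, 350.0, 232, 358 and 269.7 in old resveratrol muscle, against 559.8, 445, 512, 517 and 371 in old control muscle. Both diet groups overlapped the lower end of the controls. Hlf fell by 0.82 ± 0.21 under CR (adjusted p = 0.0067). Under resveratrol it changed by -0.60 ± 0.21 (adjusted p = 0.0541), and passed without young control 4 (0.0398), old control 5 (0.043), old CR 2 (0.0302), old CR 3 (0.0493), old CR 4 (0.0435) or old resveratrol 1 (0.0485). In these muscles the poly-A controls moved with both diets, and their part in the result was not tested. The fall of Tef was not seen at 1438033_at, its other probe set above the filter there. That probe set changed by 0.046 under CR and 0.027 under resveratrol with no call. Averaged over all probe sets of the gene, the one under the filter included, Tef changed by 0.17 under CR and 0.42 under resveratrol with no call (adjusted p = 0.716 and 0.382). With age the changes in gastrocnemius were 0.09 ± 0.18 for Tef and -0.19 ± 0.21 for Hlf.

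In heart neither gene passed a test: Tef ranged from 2583 to 3215 in old CR, 2669 to 3984 in old resveratrol, 2619 to 3539 in old control and 1821 to 2920.0 in young control hearts, and its largest change there, with age, was 0.30 ± 0.13 (adjusted p = 0.141). Hlf ranged over 478 to 788, 492 to 889, 554 to 858 and 548 to 744 in the same groups. All 4 groups overlapped for Hlf, with changes between -0.14 and 0.09 in the tests of diet and age. In neocortex Tef had 3834, 3812, 3247, 2856 and 2892 in old resveratrol mice, against 4838, 3994, 4167, 3576 and 3884 in old controls, and the ranges overlapped. It fell by 0.30 ± 0.10 (adjusted p = 0.0247), a call lost without old control 1 (0.0824), old resveratrol 4 (0.0804) or old resveratrol 5 (0.0758). Hlf in neocortex ranged over 2056 to 3237 in old CR, 1886 to 2869 in old resveratrol, 2164 to 2768 in old control and 2381 to 3026 in young control mice, with no call.

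**Figure D2:**
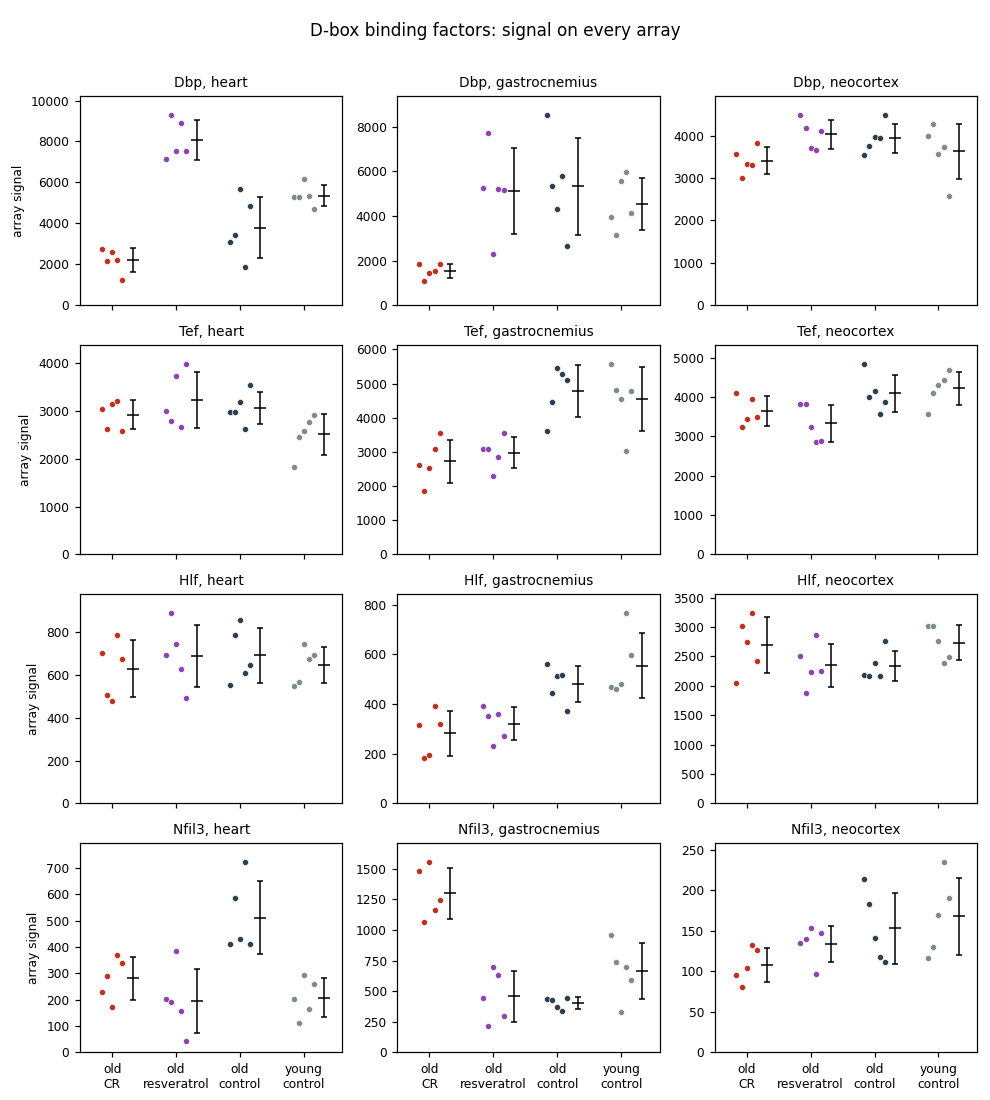
Array signal (vertical axis, linear, from 0) of Dbp, Tef, Hlf and Nfil3 on each of the 5 arrays per group (horizontal axis: old CR, old resveratrol, old control, young control) in heart, gastrocnemius and neocortex; bars are mean and SD. In gastrocnemius the 5 CR arrays lie between 1072 and 1844 for Dbp and between 1068 and 1554 for Nfil3, below and above all other groups.

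Nfil3, the repressor that shares the D-box with DBP, TEF and HLF, gave the opposite picture to Dbp in gastrocnemius. Its signal was 1479, 1068, 1554, 1160.2 and 1248 in old CR muscle and 443, 212, 701, 633 and 295 in old resveratrol muscle, against 439, 425, 368, 338 and 442 in old control muscle. Every CR array lay above all others of the tissue, and resveratrol arrays spread to both sides of the narrow control range. Nfil3 rose by 1.69 ± 0.28 under CR (adjusted p = 0.000153) and was 3.11-fold higher in CR than in resveratrol muscle (adjusted p = 0.00899). Under resveratrol it changed by 0.05 ± 0.28 (95% interval -0.52 to 0.63). Young control muscle had 961, 739.6, 330.0, 696 and 592, overlapping the old controls, and the age change of -0.65 ± 0.28 did not pass (adjusted p = 0.3).

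In heart the order was another. Nfil3 had 231, 291, 171, 371 and 341 in old CR hearts and 203, 189.6, 384, 159 and 41.8 in old resveratrol hearts, against 411, 586, 430.0, 722 and 409.9 in old control hearts and 204, 112, 295, 166 and 261 in young control hearts. The 5 old control hearts lay above all other hearts. Nfil3 rose by 1.34 ± 0.40 with age (adjusted p = 0.0296) and fell by 1.66 ± 0.40 under resveratrol (adjusted p = 0.0044). Under CR it changed by -0.88 ± 0.40, which did not pass (adjusted p = 0.117) although the groups did not overlap, and passed without old resveratrol 5 (0.0299). The age call was lost without young control 2 (0.0917), young control 4 (0.0566), old control 2 (0.0648) or old control 4 (0.0815). Old control hearts were also the group whose Actb 3′ minus 5′ difference stood apart, and its part in this result was not tested. In neocortex Nfil3 was dim, with 81.0 to 132 in old CR, 96.3 to 153 in old resveratrol, 111 to 214 in old control and 116 to 234 in young control mice, and no comparison called it.

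Nr1d1, which encodes the repressor REV-ERBα, was lower under CR in all 3 tissues. In heart it had 258, 195, 188, 297 and 226 in old CR mice, against 492, 490.1, 707, 488 and 577 in old control mice. No CR heart reached the lowest control heart, and Nr1d1 fell by 1.25 ± 0.21 (adjusted p = 0.000121). In gastrocnemius the values were 722, 136, 366, 639 and 576 in old CR and 790.1, 1350.2, 1590.0, 1428 and 1595 in old control mice, and Nr1d1 fell by 1.64 ± 0.35 (adjusted p = 0.00161). Old CR 2 and old control 1, arrays that stood apart, were the lowest of their groups, the groups did not overlap, and the call held without either. In neocortex Nr1d1 had 232, 193, 205, 268 and 233 in old CR and 574, 401, 350.5, 398 and 323 in old control mice. The ranges were again separate, and it fell by 0.83 ± 0.16 (adjusted p = 0.000273). In old CR neocortex all 4 striatal markers found on the array were called lower than in old controls, with sums of 2031 to 8600.2 against 7217 to 10869. In old resveratrol neocortex 1 of the 4 was called lower, and 2 of 4 macrophage markers tested were called higher, with sums over the list of 5404 to 8151 against 5039 to 5537. Of 4 astrocyte markers 2 were called higher and 1 lower under resveratrol (12508 to 14370.4 against 10009 to 12766). Under CR 1 astrocyte marker was called higher and 1 lower (10789.6 to 12740.2). Of the 6 neuron markers 1 rose and 1 fell under CR (65628 to 74945) and 1 rose and 2 fell under resveratrol (64269 to 71821), against 64797 to 77269.5 in old controls. Of 3 oligodendrocyte markers 1 was called higher under each diet (25892 to 32256 in old CR and 27072 to 33615 in old resveratrol against 25935 to 31816 in old control mice), and of 2 thalamic markers 1 was called lower under CR (292 to 985 against 496 to 4260.0). The part of these markers, of the Actb difference and of the poly-A controls in the neocortex results was not tested.

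Under resveratrol Nr1d1 had 557, 542, 482, 766 and 1152 in heart, 620.5, 970.2, 552, 672 and 567 in gastrocnemius and 203, 226, 223, 356 and 289 in neocortex. The hearts overlapped the controls, and the other tissues lay mostly below theirs. The change was 0.28 ± 0.21 in heart (adjusted p = 0.402) and -0.99 ± 0.35 in gastrocnemius, where the adjusted p of 0.0541 missed the threshold but passed without young control 4 (0.0384), old control 1 (0.0275), old CR 1 (0.046), old CR 2 (0.00675) or old resveratrol 2 (0.0439). In neocortex it fell by 0.66 ± 0.16 (adjusted p = 0.0027). In heart Nr1d1 was 2.89-fold lower in CR than in resveratrol mice (adjusted p = 0.000106). Old control hearts in turn lay below all young control hearts (757, 1242, 1331, 1226 and 919), and Nr1d1 fell by 0.98 ± 0.21 with age (adjusted p = 0.0036). The age changes in gastrocnemius (0.20 ± 0.35) and neocortex (0.06 ± 0.16) did not pass.

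Nr1d2, the gene of the other REV-ERB repressor, changed less at its brightest probe set. Old resveratrol hearts had 7825, 9237, 9384, 8884 and 6465 and old CR hearts 6937, 5020.5, 5772, 5683 and 4976, against 5592, 5449, 6938, 4467 and 6270.2 in old control hearts. Only the lowest resveratrol heart fell within the control range, and CR and control hearts covered the same range. It rose by 0.54 ± 0.13 under resveratrol (adjusted p = 0.00459), changed by -0.01 ± 0.13 under CR and was 1.47-fold lower in CR than in resveratrol hearts (adjusted p = 0.0148). The call between the diets was lost when both probe sets were averaged (-0.27, adjusted p = 0.579), without the trend of eBayes (0.0523) and in the test named in the methods (0.077 and 0.0757 on log2 and unlogged signals), and 1416959_at alone differed by 0.01 ± 0.31. The brightest probe set fell by 0.42 ± 0.13 with age (young control hearts 5709 to 8630.3, adjusted p = 0.0416), a call lost without young control 2 (0.0587), young control 3 (0.0895), young control 4 (0.0859), young control 5 (0.0911), old control 1 (0.0749), old control 2 (0.0796) or old control 4 (0.131). In neocortex the old resveratrol mice had 8269, 7682, 6771, 6494 and 7753, against 5618, 6297, 6083, 6267 and 6433 in old controls, with no overlap, and Nr1d2 rose by 0.26 ± 0.07 (adjusted p = 0.01). Its other probe set, 1416959_at, changed there by -0.09 ± 0.16, and averaged over both the change was 0.09 with no call (adjusted p = 0.586). In gastrocnemius the changes were -0.04 ± 0.13 under CR, 0.19 ± 0.13 under resveratrol and 0.01 ± 0.13 with age, and none passed.

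Rora, the activator that competes with the REV-ERB proteins for their element, went opposite ways under CR in the muscles. In heart it had 752, 535, 598, 681 and 668 in old CR and 426, 261, 501, 429 and 423 in old resveratrol mice, against 225, 257, 319.9, 283 and 239 in old control mice. All CR hearts stood above every other heart. Rora rose by 1.29 ± 0.18 under CR (adjusted p = 1.29e-05) and by 0.60 ± 0.18 under resveratrol (adjusted p = 0.021), and was 1.61-fold higher in CR than in resveratrol hearts (adjusted p = 0.0305). The resveratrol call was lost without old control 1 (0.0578), old resveratrol 3 (0.064) or old resveratrol 4 (0.051), and the call between the diets without old CR 1 (0.0789), old CR 4 (0.069), old CR 5 (0.0684), old resveratrol 1 (0.051), old resveratrol 2 (0.103) or old resveratrol 4 (0.0527). With age it changed by -0.41 ± 0.18 (young control hearts 269.5 to 417), which did not pass (adjusted p = 0.16). The diet and age changes were taken against old control hearts, whose Actb and Gapdh differences stood apart, and their part was not tested.

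In gastrocnemius Rora had 1839.8, 1084, 1283, 1383 and 1354 in old CR and 2478, 2025, 2748, 2553 and 1672 in old resveratrol mice, against 2807, 2216, 2231, 2899 and 2546 in old control mice. CR arrays lay below all controls, while resveratrol arrays overlapped them. Rora fell by 0.88 ± 0.17 under CR (adjusted p = 0.000818). The change was -0.16 ± 0.17 under resveratrol and 0.05 ± 0.17 with age, neither of which passed, and -0.72 ± 0.17 between the diets (adjusted p = 0.0566), which passed without young control 2 (0.0445), young control 4 (0.042), old CR 1 (0.0268) or old resveratrol 5 (0.0346). In neocortex Rora ranged over 784 to 1214 in old CR, 865 to 1639 in old resveratrol and 509 to 1392 in old control mice, old control 4 being the highest control. Its changes of 0.34 ± 0.22 and 0.52 ± 0.22 did not pass with that array (adjusted p = 0.253 and 0.0793) and passed without it (0.0333 and 0.00674).

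Bhlhe40, the E-box repressor DEC1, fell under CR in both muscles. In heart it had 682, 389, 658, 675 and 517 in old CR and 1405, 1323, 1301, 1564 and 2019 in old resveratrol mice, against 1080.4, 1262, 1286, 768 and 1732 in old control mice. The CR hearts lay below all others. Bhlhe40 fell by 1.05 ± 0.19 under CR (adjusted p = 0.000287) and was 2.63-fold lower in CR than in resveratrol hearts (adjusted p = 0.000106). In gastrocnemius it had 2327, 793, 1436, 2107 and 2237 in old CR and 3192, 2783, 2446, 2897 and 2124 in old resveratrol mice, against 4905, 4631, 4784, 4599 and 4450.0 in old control mice. The controls formed a tight group above both diets. It fell by 1.50 ± 0.21 under CR (adjusted p = 3.28e-05) and by 0.81 ± 0.21 under resveratrol (adjusted p = 0.00983), where the poly-A controls also moved and 2 of 5 macrophage markers were called higher under each diet (sums 5487 to 10300.3 in old CR and 5764 to 12028 in old resveratrol against 4128 to 5721 in old control mice), and their part was not tested. Of the 2 atrial markers tested there 1 was called higher under each diet (list sums 6581 to 23797 in old CR and 7566 to 10109 in old resveratrol against 3191 to 4095 in old control mice). Under CR the 1 neuron marker tested was called higher (377 to 685 against 149 to 307), as was 1 of 2 striatal markers (592 to 786 against 259 to 428). Under resveratrol 1 of 2 oligodendrocyte markers was called lower (2108 to 3614 against 3476 to 6859.7) and 1 of 4 heart muscle markers (26024 to 37970.3 against 37006 to 52702). The part of these markers in the gastrocnemius results was not tested either. In neocortex the old CR mice had 1821, 2231, 2102, 2206 and 2340.0 and the old controls 2008, 1725, 2054, 1250.5 and 1352, and Bhlhe40 rose by 0.37 ± 0.14 (adjusted p = 0.0419). The ranges overlapped, and the call was lost without old control 2 (0.0559), old control 4 (0.137), old control 5 (0.118), old CR 2 (0.0804), old CR 3 (0.0638), old CR 4 (0.0718) or old CR 5 (0.0917). Under resveratrol it changed by 0.31 ± 0.14 in neocortex (adjusted p = 0.104) and passed without old control 3 (0.0475). No age change of Bhlhe40 passed (-0.28 ± 0.19, 0.25 ± 0.21 and -0.22 ± 0.14 in heart, gastrocnemius and neocortex).

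Bhlhe41, the gene of the relative DEC2, passed no test within a tissue at its brightest probe set. Averaged over both its probe sets, the one under the filter included, it changed by -1.24 under CR in gastrocnemius and passed (adjusted p = 0.0435). The brightest alone changed by -0.30 ± 0.40 there. It was dim in all tissues, with group means between 114 and 327. The largest change of the brightest probe set was with age in gastrocnemius (-1.08 ± 0.40, adjusted p = 0.234). Old control muscle had 107, 190.2, 105, 181 and 155 and young control muscle 456, 332, 459, 155 and 234. The groups overlapped through young control 4, 1 of the arrays that stood apart. In neocortex its changes of -0.50 ± 0.24 under CR and -0.54 ± 0.24 under resveratrol (adjusted p = 0.114 and 0.0978) passed without old control 5 (0.0177 and 0.0151).

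**Figure D3:**
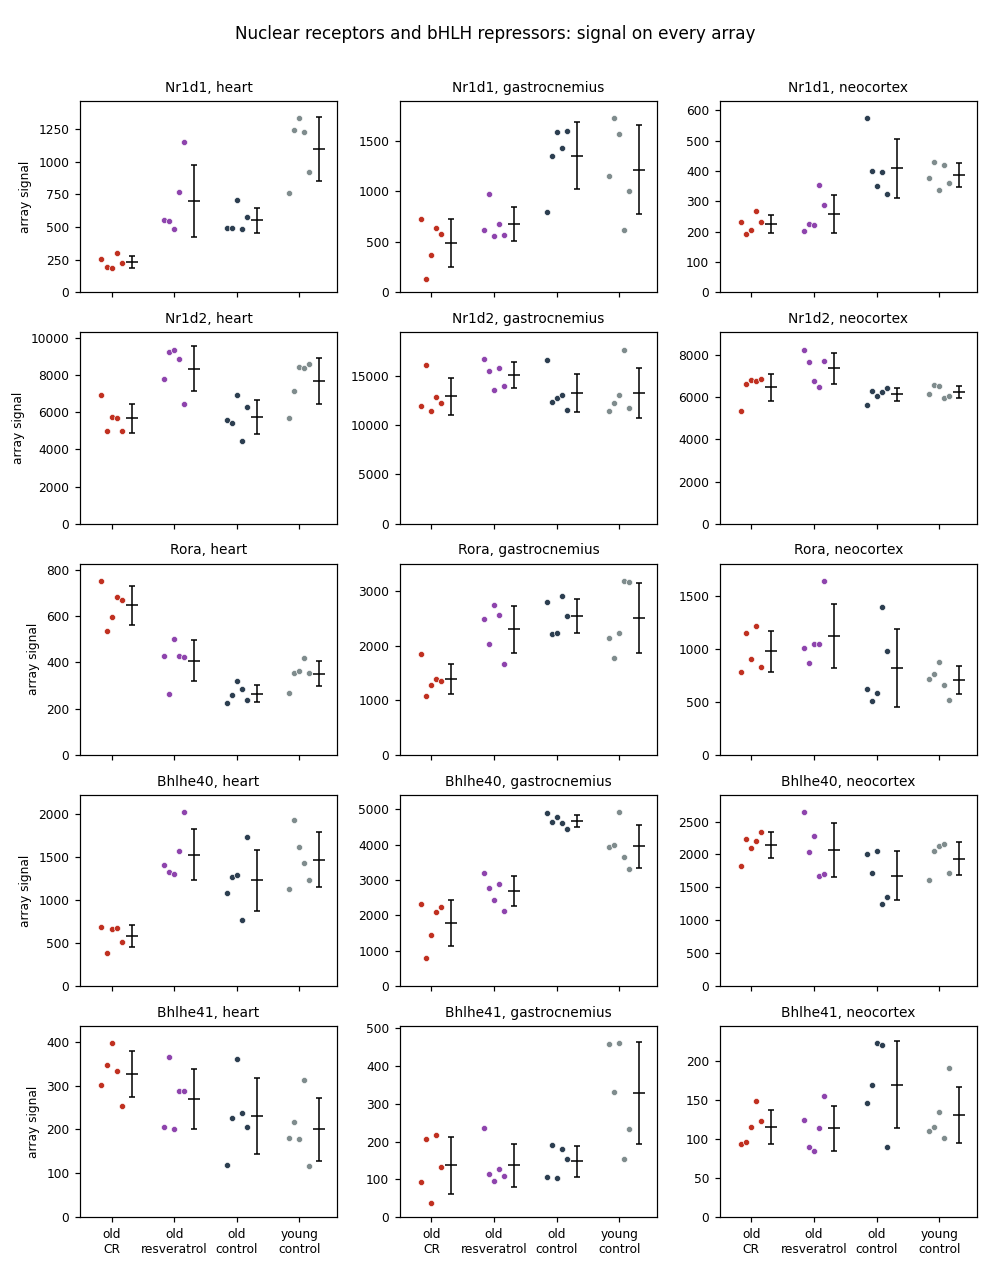
Array signal (vertical axis, linear, from 0) of Nr1d1, Nr1d2, Rora, Bhlhe40 and Bhlhe41 on each of the 5 arrays per group (horizontal axis: old CR, old resveratrol, old control, young control) in heart, gastrocnemius and neocortex; bars are mean and SD. The Nr1d1 arrays of old CR mice lie below those of old control mice in every tissue, and the Rora arrays of old CR mice lie above them in heart and below them in gastrocnemius.

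The other 14 probe sets of these genes were fitted with every probe set of the array on its own. In heart, 12 of the 14 passed the filter. Under CR 6 of them rose and 1 fell, where 20.5% of all probe sets were called, and under resveratrol 4 rose and none fell, where 15.2% were. With age 4 fell and none rose (12.0% of all probe sets), and between the diets 1 was higher and 1 lower in CR (2.74%). In gastrocnemius, again 12 of the 14 passed the filter. There 6 fell under CR (32.8% of all probe sets called), 4 fell under resveratrol (20.4%), 1 was lower in CR than in resveratrol mice (0.348%), and age called none (0.730%). In neocortex 13 passed the filter. Of these 3 rose and 1 fell under CR (26.4%), 2 rose and 2 fell under resveratrol (24.1%), and neither age (0.752%) nor the comparison of the diets (8.07%) called any.

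The other Dbp probe set, 1418174_at, gave larger CR changes than the brightest, 1438211_s_at, whose name ending marks a design that matches more than 1 transcript. In heart 1418174_at had 1377, 1207, 1425, 1227 and 839 in old CR and 3916, 4592, 4023, 4636 and 5002 in old resveratrol mice, against 2418, 2283, 4184, 1267 and 4280.3 in old control mice. It fell by 1.14 ± 0.23 under CR, rose by 0.75 ± 0.23 under resveratrol and fell by 0.82 ± 0.23 with age (adjusted p = 0.000667, 0.0241 and 0.0171). In gastrocnemius it fell by 2.40 ± 0.31 under CR, with 614 to 954 in old CR against 2627 to 4658 in old control mice, and by 0.90 ± 0.31 under resveratrol (adjusted p = 9.79e-06 and 0.0407). In neocortex it had 1549, 1491, 1406, 1696 and 1771 in old CR and 2139, 1714, 1720.4, 1615 and 1910.4 in old resveratrol mice, against 2492, 2354, 2619, 2786 and 2842 in old control mice, and neither diet overlapped the controls. There it fell by 0.73 ± 0.08 and 0.53 ± 0.08 (adjusted p = 2.08e-06 and 7.89e-05), where the brightest probe set changed by -0.21 and 0.04 without a call. The fall of Dbp under CR thus stood in all 3 tissues at this probe set and in both muscles at the other.

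In heart 1 dimmer probe set each of Tef and Nr1d2 gave changes unlike those of the brightest. Tef probe set 1450184_s_at had 539.6, 683, 874, 479 and 589 in old CR and 716, 585, 503, 492 and 471 in old resveratrol hearts, against 169, 253, 119, 89.6 and 161 in old control hearts and 471, 786, 787, 567 and 529.9 in young control hearts. The old controls lay below every other heart. It rose by 2.05 ± 0.23 under CR and 1.88 ± 0.23 under resveratrol and fell by 2.04 ± 0.23 with age (adjusted p = 9.86e-07, 5.83e-06 and 2.31e-06), while the brightest Tef probe set, 1424175_at, changed by -0.07, 0.07 and 0.30. Nr1d2 probe set 1416959_at had 556, 563, 514, 413 and 329.6 in old CR and 536, 501, 368, 558 and 387 in old resveratrol hearts, against 56.8, 81.7, 236, 70.9 and 131 in old control hearts and 291, 752, 639.8, 629.7 and 499.9 in young control hearts. Again the old controls lay below every other heart. It rose by 2.21 ± 0.31 and 2.21 ± 0.31 under the diets and fell by 2.42 ± 0.31 with age (adjusted p = 1.04e-05, 1.93e-05 and 8.75e-06). The same group of hearts had the widest Actb 3′ minus 5′ difference, 1.26 to 1.66, against 0.61 to 0.95 over the other groups, and its part in these results was not tested.

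In gastrocnemius 1416959_at had 154, 114, 26.1, 88.0 and 75.2 in old CR and 169.7, 154, 83.0, 88.9 and 99.0 in old resveratrol mice, against 188, 549, 803, 1026 and 517 in old control mice. Both diets lay below all controls, and it fell by 2.76 ± 0.45 and 2.23 ± 0.45 (adjusted p = 0.000132 and 0.00147), whereas the brightest Nr1d2 probe set, 1416958_at, changed by -0.04 and 0.19. The groups that were low here were those with high poly-A controls, whose part was not tested. Tef probe set 1450184_s_at lay under the filter in gastrocnemius but ranged widely among young controls (987, 1109.7, 1062, 31.3 and 182), against 9.81 to 24.6 in old controls. Which stretch of a transcript each probe set reads was not given in the tables used here. Hlf gave alike changes at both probe sets in gastrocnemius, where 1434735_at fell by 0.60 ± 0.15 under CR and 0.58 ± 0.15 under resveratrol (adjusted p = 0.00568 and 0.0115). Of the 8 other Rora probe sets 7 were tested in heart, and 4 rose and none fell under CR, with log2 changes from 0.50 to 1.99. In gastrocnemius all 8 were tested, and 3 fell and none rose under CR (-1.09 to 0.057). In neocortex 3 of 8 rose under CR (-0.23 to 0.76) and 2 under resveratrol (-0.33 to 0.72), among them 1424034_at with 547, 531, 511, 633 and 481 in old CR, 456 to 667 in old resveratrol and 278 to 464 in old control mice.

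**Figure D4:**
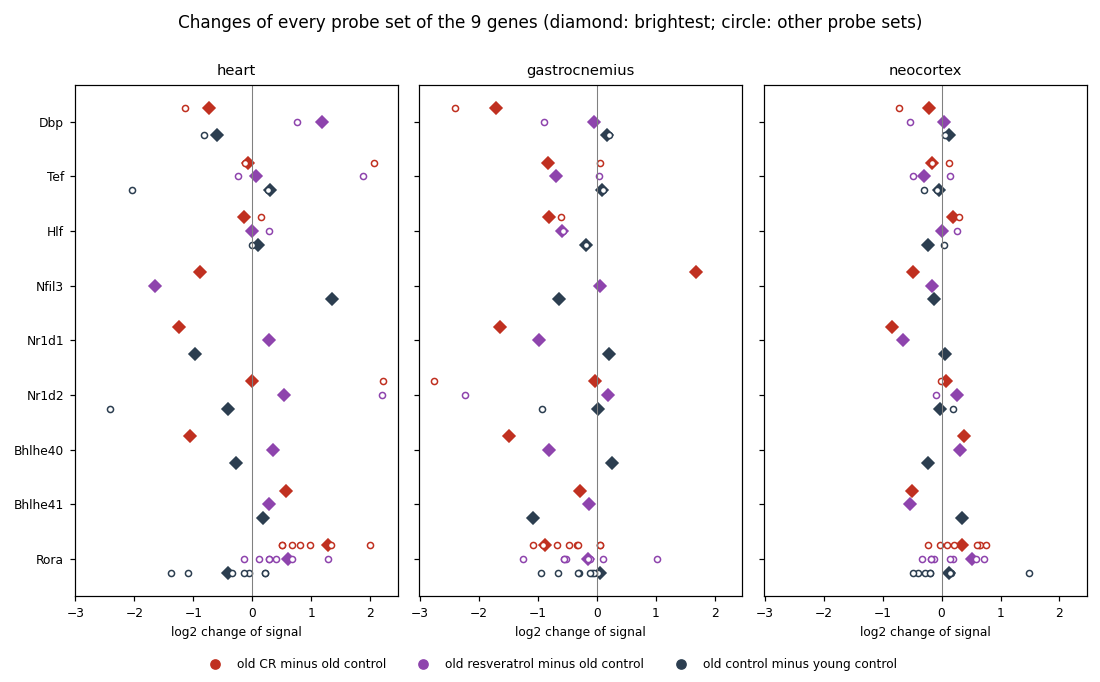
Log2 change of signal (horizontal axis) of every probe set of the 9 genes (vertical axis) that passed the filter, in heart, gastrocnemius and neocortex, for old CR minus old control, old resveratrol minus old control and old control minus young control. Filled diamonds are the brightest probe set of a gene and open circles the others; 1 circle of Tef and that of Nr1d2 in heart lie near 2 under both diets, with the diamonds near 0 or at 0.54.

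Whether a change differed between tissues was tested as the difference of the changes, in a model of 40 arrays per pair of tissues. The labels do not tie arrays of different tissues to a mouse, so arrays were taken as separate. Of 81 such tests on the 9 genes, 24 passed. Between heart and gastrocnemius 3 of the 9 genes differed in their CR change (19.7% of all genes), 6 in their resveratrol change (15.4%) and 1 in its age change (2.66%). Rora differed with the smallest p: its CR change was 2.17 ± 0.24 higher in heart than in gastrocnemius (adjusted p = 2.49e-08). Nfil3 differed the other way, by -2.57 ± 0.51 (adjusted p = 0.000338), and Tef by 0.76 ± 0.22. Under resveratrol Dbp (1.24 ± 0.38), Nr1d1 (1.27 ± 0.43), Bhlhe40 (1.15 ± 0.30), Rora (0.76 ± 0.24) and Tef (0.75 ± 0.22) moved higher in heart and Nfil3 (-1.71 ± 0.51) lower. The age change of Nfil3 was 1.99 ± 0.51 higher in heart (adjusted p = 0.0231), a call lost without young control 2 or old control 4 of heart or young control 1 of gastrocnemius (adjusted p up to 0.0575). When any 1 of 3 arrays was left out, the resveratrol differences of Dbp (old control 4 of heart, old control 1 or old resveratrol 3 of gastrocnemius, up to 0.0615) and Rora (old control 1 or old resveratrol 3 of heart, old resveratrol 5 of gastrocnemius, up to 0.0627) were also lost, and that of Nr1d1 was lost when any 1 of 13 arrays was left out (up to 0.0845).

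Between gastrocnemius and neocortex 6 of the 9 genes differed in their CR change, where 28.0% of all genes did. Nfil3 moved 2.17 ± 0.36 higher in gastrocnemius, and Bhlhe40 (-1.87 ± 0.26), Dbp (-1.51 ± 0.32), Rora (-1.22 ± 0.30), Hlf (-1.02 ± 0.25) and Tef (-0.67 ± 0.21) lower. Bhlhe40 alone of the 9 differed in its resveratrol change (-1.12 ± 0.26, where 17.7% of all genes did), and no age change did (0.673%). Between heart and neocortex 3 differed under CR (16.0% of all genes): Bhlhe40 (-1.43 ± 0.25), Bhlhe41 (1.08 ± 0.38) and Rora (0.95 ± 0.29). Another 3 differed under resveratrol (11.9%): Dbp (1.15 ± 0.26), Nfil3 (-1.49 ± 0.49) and Nr1d1 (0.95 ± 0.28). With age Nr1d1 alone differed (-1.04 ± 0.28, where 8.45% of all genes did). Of these, the Bhlhe41 difference was lost when any 1 of 26 arrays was left out (adjusted p up to 0.113), that of Nfil3 when any 1 of 11 was (up to 0.0886), that of Rora without old control 4 of neocortex (0.0573) and that of Nr1d1 under resveratrol without old resveratrol 5 of heart (0.0527). The CR fall of Nr1d1 passed no test of a difference between tissues, the differences being 0.39 ± 0.43 for heart minus gastrocnemius, -0.41 ± 0.28 for heart minus neocortex and -0.80 ± 0.41 for gastrocnemius minus neocortex.

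A list of 27 further clock genes was set beside these factors, 23 of which were found on the array, and 20 were tested in heart, 19 in gastrocnemius and 22 in neocortex. In gastrocnemius CR called 1 of them higher (Wee1) and 6 lower, where 31.2% of all genes passed. Resveratrol called 1 higher and 3 lower, where 18.7% passed. Both counts are near the share of all genes. Neither age (0.429% of all genes in limma) nor the comparison of the diets (0.561%) called any, in limma or in the test named in the methods. Of the activators Clock fell, by 1.02 ± 0.17 under CR and 0.79 ± 0.17 under resveratrol (667 in old CR and 784 in old resveratrol against 1375 in old control mice). Arntl was not called in any tissue. Of the repressors Ciart (CHRONO) fell by 1.68 ± 0.27 and 1.50 ± 0.27 in the same comparisons, Per3 fell under CR (-0.53) and Per2 rose under resveratrol (0.73). The kinase gene Csnk1e (-0.54), the ubiquitin ligase gene Btrc (-0.66) and Alas1 (-0.39), the first enzyme of haem synthesis, made up the CR falls. Alas1 also fell under resveratrol (-0.59).

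In heart CR called 2 of the 20 higher and 2 lower, where 22.0% of all genes passed. Resveratrol called 2 higher and 2 lower, where 17.5% passed. Both counts are near the share of all genes. Between the diets 2 were lower in CR, where 4.0% of all genes passed: Per3 (-0.97 ± 0.18) and Ciart (-1.23 ± 0.25). Per3 fell under CR (-0.75), and Ciart rose under resveratrol (0.89) while Clock fell (-0.56). Fbxw11, a ubiquitin ligase gene, fell under both diets (-0.63 and -0.47). Wee1 rose under CR (0.61), as it did in gastrocnemius (0.60) and neocortex (0.32), and Alas1 rose under both diets (0.58 and 0.83). With age, where 10.8% of all genes passed, 3 rose, Per2 (0.90), Csnk1d (0.40) and Fbxw11 (0.57), and 2 fell, Csnk1e (-0.42) and Alas1 (-0.91). In neocortex CR and resveratrol each called 4 of the 22 higher and 5 lower, where 30.6% and 26.2% of all genes passed. Under CR Cry1 (0.63), Csnk1d (0.68), Fbxw11 (0.32) and Wee1 rose, and Per1 (-0.59), Per3 (-0.30), Btrc (-0.39), Pdxk (-0.39) and Fabp7 (-0.73) fell. Under resveratrol Cry1 (0.70), Csnk1d (0.53), Fbxw11 (0.43) and Per2 (0.54) rose, and Per1 (-0.41), Per3 (-0.40), Ciart (-0.43), Btrc (-0.43) and Alas1 (-0.31) fell. Per2 fell with age (-0.66), where 1.46% of all genes passed. Fabp7 was lower in CR than in resveratrol mice (-0.72), where 9.29% passed.

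Among mice of the same group the 9 genes varied together in part. Group means were taken off, and Pearson r, Spearman rho and r without the 2 arrays farthest from the median of the first gene are given in that order. Nr1d1 and Bhlhe40 correlated over the 20 hearts (r = 0.66, rho = 0.68 and 0.62) and over the 20 gastrocnemius muscles (r = 0.79, rho = 0.69 and 0.61). In heart Dbp went with Nr1d2 (r = 0.63, rho = 0.53 and 0.52) and Hlf with Nr1d2 (r = 0.62, rho = 0.61 and 0.60). In gastrocnemius Dbp went with Hlf (r = 0.65, rho = 0.68 and 0.55). Tef and Nr1d1 gave r = 0.73, rho = 0.50 and 0.48 there. In neocortex the highest pair among the 9 was Tef and Nfil3 (r = 0.60, rho = 0.60 and 0.56). The strongest negative pair among the 9 was Tef and Nr1d2 in gastrocnemius (r = -0.69, rho = -0.42 and -0.38). Of the core clock genes Per2 went with Hlf in gastrocnemius (r = 0.80, rho = 0.83 and 0.75) and Per3 with Dbp in neocortex (r = 0.70, rho = 0.72 and 0.59). The points are arrays scaled to 1 trimmed mean and share whatever differs between hybridizations, and no p is attached.

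Over all genes tested, those whose residual pattern was most like that of Dbp were Rwdd3 (0.86), Aspn (0.85) and Adgra3 (0.82) in heart, Pdp1 (0.86), Kpna1 (0.81) and Gpr155 (0.79) in gastrocnemius and 1110017D15Rik (0.88), Ube2cbp (0.87) and Hirip3 (0.84) in neocortex (Pearson r over 20 arrays). The least like were Ddt (-0.77), Lgals3bp (-0.76) and Rgs9 (-0.76) in heart, Npepl1 (-0.83), Dpp7 (-0.78) and Ccl6 (-0.73) in gastrocnemius and Scn2a (-0.82), Tbc1d22b (-0.79) and Bloc1s6 (-0.78) in neocortex. For Nr1d1 the most alike were Bmp1 (0.84), Smtn (0.82) and Wbp1 (0.80) in heart, Inppl1 (0.92), Cluh (0.92) and Ank2 (0.91) in gastrocnemius and Cd93 (0.76), Gimap4 (0.73) and Smco4 (0.72) in neocortex. Its least alike were Gmnn (-0.84), Utp3 (-0.81) and Nemf (-0.81) in heart, Syap1 (-0.91), Cops3 (-0.89) and Tm2d2 (-0.89) in gastrocnemius and Psmg3 (-0.76), Alg1 (-0.74) and Pnldc1 (-0.70) in neocortex. Without the 2 arrays farthest from the median of Dbp or Nr1d1 the size of r over these 36 pairs ran from 0.50 to 0.84, and that of rho over all 20 arrays from 0.54 to 0.85. For Adgra3 the value was 0.50 without those arrays (rho = 0.54) and for Bloc1s6 -0.50 (rho = -0.64), over 1.5 times smaller than with them. No gene was named for the same one of these lists in more than 1 tissue.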

How the data were processed

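RNA of heart, gastrocnemius and neocortex was hybridized to Affymetrix mouse expression arrays, 5 arrays per group in each of 3 tissues. The deposited values are linear signal intensities that the authors made with GCOS 1.2 (named in the submitters' processing notes) and scaled to a 2% trimmed mean of 500. The settings behind the signals were not given in the sources used here, and detection calls were not used. Groups came from the sample labels. Whether the arrays of a group were run on separate days was not given.

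Signals under 1 were set to 1 and log2 transformed, and 64 control probe sets were left out. Probe sets with 1 symbol stood for that gene, the brightest of several being used, and genes whose mean lay under the 40th percentile of a tissue (signals 60.5, 69.5 and 57.3 in heart, gastrocnemius and neocortex) were not tested. In each tissue 1 model held its 4 groups, fitted by limma 3.58.1 in R 4.3.3 (lmFit, eBayes with trend), and p-values were adjusted by Benjamini-Hochberg over all genes tested, with calls at 0.05. Differences between tissues were tested in a model of 40 arrays. The number of arrays limits the precision. Tables and figures were made with Python 3.11.15, pandas 2.3.3, numpy 2.4.6 and matplotlib 3.10.9, and the fits were tested on simulated data. All 9 genes are named, with further clock genes where they passed a test and, for Dbp and Nr1d1, the 3 most and 3 least alike genes per tissue. The members and the gene lists were chosen with earlier results of these data known. Alternatives were another normalization, offset, filter, probe set rule and fit, a replicate block, the t-test of the methods, and leaving out arrays. Listed clock genes that no probe set names alone were not analysed here.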

Additional observations from a re-analysis of the deposited data

Results flagged for a closer look

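In 5 of 108 groups of 5 arrays 1 array lay far from the rest, where chance gives about 1 in 20 groups. Nr1d1 was 790.1 in gastrocnemius old control 1, against 1350.2 to 1595 on the other arrays of that group. Rora was 261 in heart old resveratrol 2 (others 423 to 501) and 1639 in neocortex old resveratrol 5 (others 865 to 1041). Nfil3 was 96.3 in neocortex old resveratrol 4 (others 135 to 153), and Nr1d2 was 5337 in neocortex old CR 1 (others 6627 to 6879).

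The change of a gene differed between tissues, by the test of the difference itself, in 24 of 81 tests. Of all genes, 0.673% (age) to 28.0% (CR) passed the same tests, both for gastrocnemius minus neocortex. The share for each comparison is given with the counts in the results above. For heart minus gastrocnemius the CR differences were 0.76 for Tef, -2.57 for Nfil3 and 2.17 for Rora on the log2 scale. Under resveratrol they were 1.24 for Dbp, 0.75 for Tef, -1.71 for Nfil3, 1.27 for Nr1d1, 1.15 for Bhlhe40 and 0.76 for Rora, and with age 1.99 for Nfil3. For heart minus neocortex they were -1.43 for Bhlhe40, 1.08 for Bhlhe41 and 0.95 for Rora under CR. Under resveratrol they were 1.15 for Dbp, -1.49 for Nfil3 and 0.95 for Nr1d1, and with age -1.04 for Nr1d1. For gastrocnemius minus neocortex the CR differences were -1.51 for Dbp, -0.67 for Tef, -1.02 for Hlf, 2.17 for Nfil3, -1.87 for Bhlhe40 and -1.22 for Rora, and the resveratrol difference of Bhlhe40 was -1.12.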

How the results depend on the processing

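Of the 32 calls of the 9 genes within tissues, 16 held under every alternative and without any 1 array, and 341 of 379 alternative values kept their direction and side of the threshold. The cause of the changes below was not tested. Averaging every probe set that names a gene turned the direction of 8 results that passed the test with the brightest probe set or with the average (turns of changes called with neither are not counted): Dbp under resveratrol in neocortex (-0.25), Tef in heart with age (-0.50) and under CR (0.62), Tef in gastrocnemius with age (-1.44), under CR (0.17) and under resveratrol (0.42), Nr1d2 under CR in heart (1.10) and Nr1d2 under resveratrol in gastrocnemius (-1.02). It also gave 3 members between the diets in heart in place of 5, and 1 with age in gastrocnemius in place of 0. The t-test of the methods, after Benjamini-Hochberg on log2 or unlogged signals, gave 3 or 2 members between the diets in heart, 4 and 4 under resveratrol in gastrocnemius in place of 2, 0 and 0 between the diets there in place of 2, 1 and 1 under CR in neocortex in place of 2, and 1 and 1 under resveratrol there in place of 3. On log2 signals it gave 2 under resveratrol in heart in place of 4. At the threshold of the methods, with no adjustment, the t-test on log2 signals called 4, 2, 2 and 5 in heart, 7, 4, 0 and 3 in gastrocnemius and 1, 1, 0 and 0 in neocortex of the 9 genes under CR, under resveratrol, with age and between the diets in that order. The count of all genes at that threshold is not given here. These counts alone thus do not show whether the 9 genes passed more often than others. After adjustment the heart call of Dbp under CR was lost (adjusted p = 0.174 and 0.156), as was Nr1d2 with age (0.175 and 0.157). Other calls it lost on both scales were Dbp and Nfil3 between the diets in gastrocnemius, Tef and Nr1d1 under resveratrol and Bhlhe40 under CR in neocortex, and Rora under resveratrol and Rora and Nr1d2 between the diets in heart. Nfil3 under resveratrol in heart was lost on log2 signals and Nr1d1 between the diets there on unlogged ones. The average of probe sets also lost the calls of Tef (adjusted p = 0.145) and Nr1d2 under resveratrol and Bhlhe40 under CR in neocortex, and of Rora under resveratrol and Rora and Nr1d2 between the diets in heart.

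Without the trend in eBayes heart had 1 member with age in place of 3 and neocortex 1 under CR, which was also its count with no filter. In gastrocnemius resveratrol called 4 with an offset of 50, a stricter filter or only the 2 groups compared, and the diets differed in 1 with only those 2 groups. Leaving out the arrays that stood apart, chosen after seeing the data, gave 5 under resveratrol and 4 between the diets there, and lost Nfil3 with age in heart (adjusted p = 0.0926). Without 1 array at a time the counts ran from 1 to 4 with age in heart, 2 to 4 under resveratrol in gastrocnemius and 1 to 3 under CR in neocortex. For differences between tissues the age count of heart minus gastrocnemius ran from 0 to 2 without 1 array. That of heart minus neocortex ran from 1 to 2, and was 3 with quantile normalization, 2 with the offset, 2 with every probe set and 3 with the mean of probe sets. Heart minus neocortex ran from 1 to 3 under CR and under resveratrol. Heart minus gastrocnemius under CR had 6 with the mean of probe sets in place of 3. Gastrocnemius minus neocortex ran from 0 to 1 with age (1 with the mean of probe sets, 1 without the arrays that stood apart) and from 1 to 2 under resveratrol (3 and 2).

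Counts over all genes moved too: the t-test of the methods on log2 signals gave 647 with age in heart in place of 1439, 2 with age in gastrocnemius in place of 55, 295 between the diets in heart in place of 531, 0 between them in gastrocnemius in place of 72 and 444 in neocortex in place of 1213, and on unlogged signals 27 with age in neocortex in place of 191. Without the arrays that stood apart 950 genes differed between the diets in heart and 304 in gastrocnemius, 717 with age and 3908 under resveratrol (2396 with them). Correlations of same-numbered deviations between groups of a tissue ran from -0.20 to 0.17. They showed no clear pairing of arrays by replicate number but cannot exclude it. With a replicate block no call of the 9 genes was lost and 2 were gained in gastrocnemius, Hlf under resveratrol (adjusted p = 0.0345) and Rora between the diets (0.0495), 3 and 3 members in place of 2 and 2.

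With 5 arrays a group, the number of arrays sets the width of the intervals. The time of collection was not given, probe sets of Tef, Nr1d2 and Dbp disagree, and Nfil3 in neocortex and Bhlhe41 are dim.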
